A study of Mus musculus with 2 samples.

Results

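Loci at which H3K27ac, H3K4me3 and H3K36me3 were all listed as lower in Dicer knockout (KO) than in wild-type (WT) mouse mesenchymal stromal cells are described here. The differential events of all 6 deposited lists were pooled, and neighbours at most 10 kb apart on a chromosome were joined into a chain. A chain was kept when it held at least 1 event of each mark listed as higher in WT, held no event listed as higher in KO, and did not lie on chromosome X. Of 9081 chains, 8804 lay off chromosome X and 57 of these met the rule, a share of 0.647%. Chains of fewer than 3 events could not meet it. The 57 loci made up 4.24% of the 1344 chains with at least 3 WT-higher events and no KO-higher event. They hold 512 of the 21418 listed events: 149 of H3K27ac, 169 of H3K4me3 and 194 of H3K36me3.

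The KO group is a Dicer KO line of immortalized mesenchymal stromal cells, and the WT group is a line of the same kind that carries Dicer. The labels call both monoclonal, and call the same cells fibroblasts in the sample titles. Both were grown in serum-supplemented medium and fixed with formaldehyde before chromatin immunoprecipitation and sequencing (ChIP-seq). For H3K27ac, 1 labelled sample stands for each genotype. The lists of H3K4me3 and H3K36me3 are tied to KO and WT by the names they carry, not by a labelled sample. Each list gives 1 value per genotype, pooled over replicates for H3K27ac, so no value below has a replicate error, and a difference between genotypes cannot be told apart from one between clones. Fewer cells with a mark and less of the mark per cell cannot be told apart in bulk chromatin.

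Dicer cuts microRNA precursors into mature microRNAs, so cells without it lack most microRNAs. Acetylation of lysine 27 of histone H3 (H3K27ac) marks active promoters and enhancers. Trimethylation of lysine 4 (H3K4me3) is laid down around the start sites of active genes, and trimethylation of lysine 36 (H3K36me3) follows the elongating polymerase into the transcribed body of a gene. A place with all 3 marks therefore holds the usual marks of an active promoter and of the transcribed stretch beside it. Positions are in mouse build mm9. Genes are not named and cell-type markers were not checked, since the annotation used here is of another build.

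The only sequence that the lists give for a locus is an 8-base word which the GEM program attached to some events. It is shown because it is what the deposited lists say about DNA sequence at the loci. The words in capitals below are complete, are written as deposited, and stand with their mark:
H3K36me3 word 1: GTGGTGTG
H3K36me3 word 2: GTTGTGTG
H3K4me3 word 1: CCCCCGGT
H3K4me3 word 2: CGCCCGGT
H3K4me3 word 3: CGCCCTGT
Of the 194 H3K36me3 events of the loci, 12 carried a word, a share of 6.19% (95% interval 3.24 to 10.6) against 4.76% of all WT-higher events of the mark. GTGGTGTG stood at 7 events in 7 loci and GTTGTGTG at 5 events in 5 loci. Of the 169 H3K4me3 events, 7 carried a word, 4.14% (1.68 to 8.35) against 6.37% of the whole list. CCCCCGGT was the word at 4 of these, CGCCCTGT at 2 and CGCCCGGT at 1. Both shares lay near those of the whole lists, and most events of the loci carried no word.

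Because the rule chose the loci by their direction in these lists, the size of the difference is a description with no test. It is given as the ratio of KO to WT reads, where KO reads have been scaled by the authors' software to the WT library, so a value of 0.1 means that KO held 0.1 of the WT level. Intervals in brackets after a ratio are exact 95% intervals of the 2 read numbers and cover counting error only. Those after a share are exact binomial intervals that treat events or loci as independent, which events of 1 locus are not. Among all listed events, the WT-higher ones made up 17.5% for H3K27ac, 88.2% for H3K4me3 and 66.2% for H3K36me3. The loci took 8.44% of the 1765 WT-higher events of H3K27ac, 3.05% of the 5542 of H3K4me3 and 5.81% of the 3341 of H3K36me3. At each of the 57 loci, the interval of the summed reads lay below 1 for every mark. This follows from the choice of loci, since every event in them was listed as WT-higher, and is no separate support.

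On the scale of the lists, the methylation marks were further apart between the genotypes than acetylation was. Summed over a locus, H3K27ac had a median of 179 scaled reads in KO and 753 reads in WT, and the median ratio of the 57 loci was 0.29, with a range of 0.036 to 0.702. H3K4me3 had a median of 196 scaled reads in KO and 1552 in WT, with a median ratio of 0.115 and a range of 0.00857 to 0.347. H3K36me3 had a median of 22.1 scaled reads in KO and 159 in WT, with a median ratio of 0.11 and a range of 0 to 0.4. On that scale H3K27ac was the mark that KO kept most of at most loci. Its ratio was the highest of the 3 marks at 47 loci, H3K36me3 had the highest at 8 and H3K4me3 at 2. H3K4me3 lay below H3K27ac at 52 loci, and H3K4me3 lay below H3K36me3 at 28, which is close to an even split. The order of H3K4me3 and H3K27ac depends on the scale of the lists. The reads of KO and of WT were also each set against a value taken as that genotype's background on the chromosome in question. H3K4me3 then lay below H3K27ac at 28 of 57 loci, so H3K27ac was not the highest mark at most loci on that scale. H3K36me3 was not put on it.

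**Figure D1:**
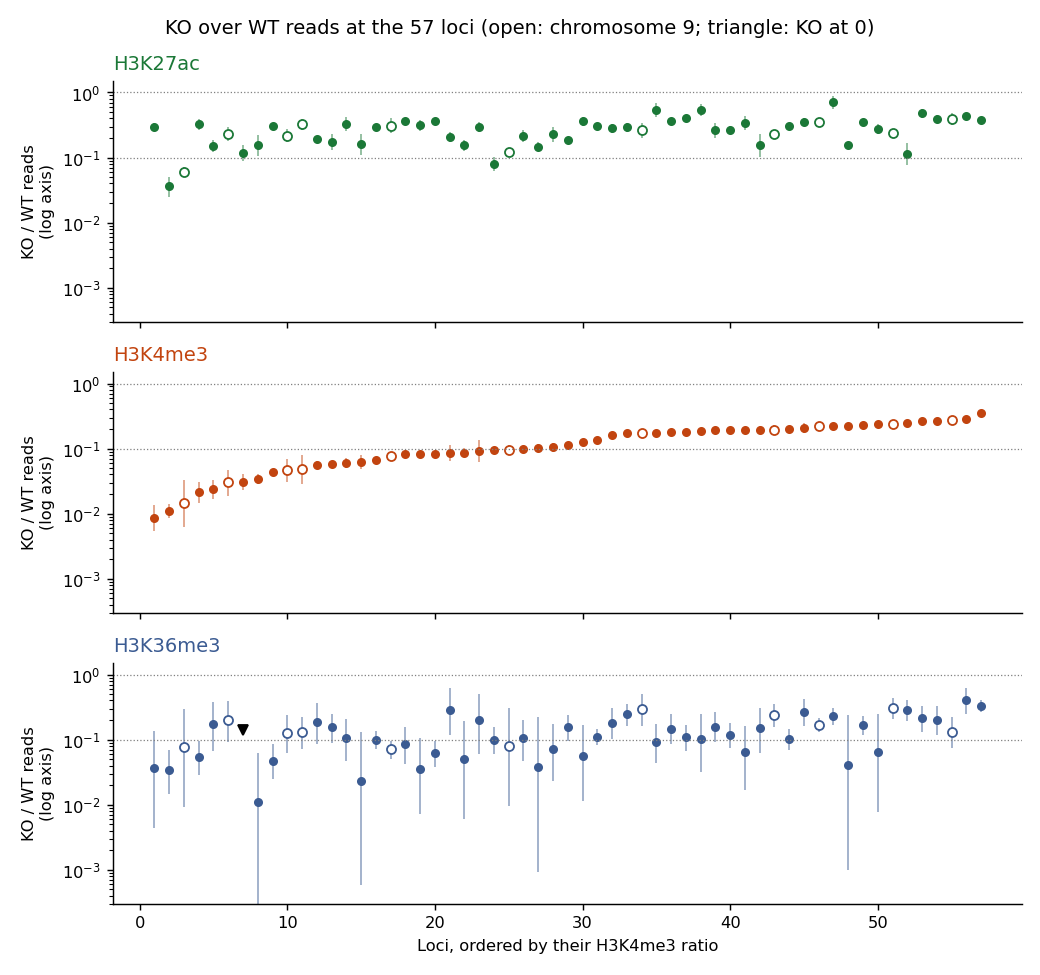
Ratio of KO to WT reads (log axis) at each of the 57 loci, summed over the WT-higher events of a mark, with 95% intervals from counting error only; loci are in the same order in the 3 panels, dotted lines stand at 1 and 0.1, open points are on chromosome 9, and the triangle is a locus with 0 H3K36me3 reads in KO, drawn at a floor of 3 reads. H3K4me3 ran from 0.00857 to 0.347 and most H3K27ac points stayed above 0.1, while the intervals of H3K36me3 are wide.

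Event by event, the loci stood apart from the rest of the lists in H3K4me3 and H3K36me3 but not in H3K27ac. The median ratio of H3K27ac events was 0.252 in the loci and 0.26 in the WT-higher events outside them. H3K4me3 had 0.125 in the loci and 0.336 outside them. H3K36me3 had 0.118 in the loci and 0.283 outside them. Events at which KO held at most 0.1 of the WT level show the same split. They numbered 75 of 169 H3K4me3 events in the loci (44.4%, 36.8 to 52.2) against 8.95% of the whole WT-higher list. For H3K36me3 they numbered 84 of 194 (43.3%, 36.2 to 50.6) against 12.1%, and for H3K27ac 14 of 149 (9.4%, 5.23 to 15.3) against 6.4%. At least 1 such event was found in 40 loci for H3K4me3, in 38 for H3K36me3 and in 6 for H3K27ac. These shares describe events that the rule chose from the same lists and were not tested. Read depth did not run the same way in every mark. The median event of the loci had 368 WT reads for H3K27ac against 304 in the whole list, 542 against 558 for H3K4me3, and 60.5 against 73 for H3K36me3. In KO the median H3K36me3 event of the loci had 7.45 scaled reads, so H3K36me3 ratios at or below 0.1 rest on few KO reads. With 1 read added, the median H3K36me3 ratio in the loci was 0.146.

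Chains with all 3 marks were then set beside chains with only 2 of them WT-higher and no KO-higher event. There were 278 such chains without listed H3K27ac, 128 without listed H3K36me3 and 53 without listed H3K4me3. Where H3K27ac was not listed, the methylation marks differed less between the genotypes. Median H3K4me3 per chain was 196 scaled KO reads and 1552 WT reads at the 57 loci, and 736 scaled KO reads and 2321 WT reads at the chains without H3K27ac. The median ratio was 0.115 in the loci and 0.321 in those chains for H3K4me3. H3K36me3 had a median of 0.11 in the loci and 0.316 in those chains. Without chromosome 9 H3K4me3 stood at 0.121 in the loci and 0.307 in those chains, and H3K36me3 at 0.105 in the loci and 0.301 in those chains. In units of own background the median H3K4me3 event stood at 0.233 in the loci and 0.658 in those chains, so the gap was there on that scale too.

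Chains that had H3K27ac and lacked another mark lay closer to the loci. In the 128 chains without listed H3K36me3 the median H3K4me3 ratio was 0.174, and 35.4% of their H3K4me3 events were at or below 0.1. In the 53 chains without listed H3K4me3 the median H3K36me3 ratio was 0.146, and 34.9% of their H3K36me3 events were at or below 0.1. H3K27ac itself had a median ratio of 0.29 in the loci, 0.28 without listed H3K36me3 and 0.317 without listed H3K4me3. These differences between kinds of chain were not tested, since each kind was chosen from the same lists.

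**Figure D2:**
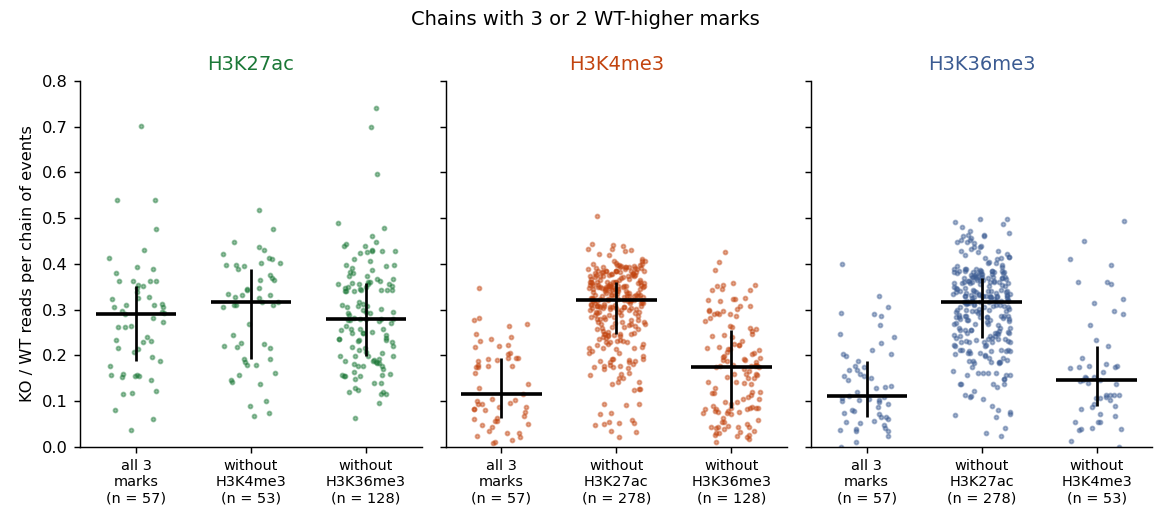
Ratio of KO to WT reads per chain of events (linear axis from 0) for each mark, in the 57 loci with all 3 marks WT-higher and in chains that lacked a listed event of the mark named below them; points are chains, the thick line is the median and the thin line spans the quartiles. The loci centre on 0.115 for H3K4me3 and 0.11 for H3K36me3, below the chains without H3K27ac at 0.321 and 0.316, while the H3K27ac medians lie between 0.28 and 0.317.

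At 3 loci KO was at or below 0.1 of WT in all 3 marks, and the first of them ran from 43588657 to 43598344 on chromosome 18. H3K27ac had 38.3 scaled reads in KO and 1063 reads in WT over 2 events, a ratio of 0.036 (0.025 to 0.0504) and the lowest of the 57. H3K4me3 had 28.6 scaled reads in KO and 2573 in WT over 4 events, a ratio of 0.0111 (0.00849 to 0.0143). H3K36me3 had 13.6 scaled reads in KO and 394 in WT over 6 events, a ratio of 0.0346 (0.0148 to 0.0686). KO thus had few reads of any mark here. The 4 H3K4me3 events spread from 43596371 to 43598344, the 2 H3K27ac events lay 154 and 274 bp from the nearest of them, and all 6 H3K36me3 events lay on 1 side, from 43588657 to 43594483. At 3 of those 6, KO had 0 reads against 81, 65.5 and 65.5 reads in WT.

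A second locus lay 21539 bp away, from 43552197 to 43567118 on chromosome 18. H3K27ac there had 82.9 scaled reads in KO and 1047 in WT, a ratio of 0.0792 (0.0621 to 0.1). H3K4me3 had 115 scaled reads in KO and 1227 in WT, a ratio of 0.0935 (0.0813 to 0.107). H3K36me3 had 32.3 scaled reads in KO and 323 in WT, a ratio of 0.1 (0.0593 to 0.159). All 3 marks were thus near 0.1 of WT. Within 100 kb of each of these neighbours, 35 further events were listed, all WT-higher, the neighbouring locus included.

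The third locus with every mark at or below 0.1 was dominated by acetylation. Between 57996383 and 58010685 on chromosome 9, 6 H3K27ac events together had 179 scaled reads in KO and 2932 in WT, a ratio of 0.061 (0.052 to 0.0716). Each of the 6 lay between 0.049 and 0.0851. The only H3K4me3 event, at 58006062, showed 3.0 scaled KO reads against 206 in WT, a ratio of 0.0146 (0.00622 to 0.0329), and lay 47 bp from an H3K27ac event. The only H3K36me3 event showed 3.4 scaled KO reads against 44 in WT, a ratio of 0.0773 (0.00906 to 0.296). No other locus had KO at or below 0.1 in all 3 marks, and 20 of the 57 had it at or below 0.25 in all 3.

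The locus with most events, 26 over 57540 bp, ran from 54272952 to 54330491 on chromosome 2. Its H3K4me3 had 233 scaled reads in KO and 3472 in WT over 4 events, a ratio of 0.0672 (0.0611 to 0.0738). H3K36me3 had 74.2 scaled reads in KO and 756 in WT over 13 events, a ratio of 0.0981 (0.0712 to 0.134). H3K27ac had 1029 scaled reads in KO and 3513 in WT over 9 events, a ratio of 0.293 (0.272 to 0.315). Acetylation was uneven along the locus. At 54288329 there were 79.4 scaled reads in KO and 444 in WT, a ratio of 0.179. At 54292274 there were 141 scaled reads in KO and 225 in WT, a ratio of 0.626. These were the lowest and the highest of its 9 H3K27ac events. H3K36me3 events lay on both sides of the H3K4me3 events, 4 on one side and 9 on the other.

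The next in size, 24 events from 43912733 to 43950372 on chromosome 9, had moderate ratios. H3K27ac had 661 scaled reads in KO and 1905 in WT (ratio 0.347, 0.316 to 0.38). H3K4me3 had 577 scaled reads in KO and 2640 in WT (0.219, 0.204 to 0.234), and H3K36me3 had 132 scaled reads in KO and 790 in WT (0.168, 0.131 to 0.212). In this locus too H3K36me3 events lay on both sides, 8 and 4. The locus from 102750985 to 102769518 on chromosome 15 held 20 events. Its H3K4me3, at 7 events, had 1052 scaled reads in KO and 5185 in WT, a ratio of 0.203 (0.193 to 0.213). Its H3K36me3, at 8 events, had 52.6 scaled reads in KO and 519 in WT, a ratio of 0.101 (0.0682 to 0.146), and its H3K27ac had 772 scaled reads in KO and 2490 in WT, a ratio of 0.31 (0.285 to 0.337).

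A further 2 loci held 17 events each but differed in which mark filled them. From 50862730 to 50884974 on chromosome 9, 14 of the 17 were H3K36me3 events, all on 1 side of the H3K4me3 events and up to 21387 bp away. Together they had 71.4 scaled reads in KO and 1002 in WT, a ratio of 0.0713 (0.051 to 0.0969). H3K27ac of this locus lay 16633 bp from H3K4me3, with 82.0 scaled reads in KO and 264 in WT, a ratio of 0.311 (0.237 to 0.403). From 59357141 to 59385278 on chromosome 6, H3K27ac led instead with 8 events, 616 scaled reads in KO and 3294 in WT, a ratio of 0.187 (0.171 to 0.205). H3K4me3 had 181 scaled reads in KO and 1575 in WT there, a ratio of 0.115 (0.103 to 0.128).

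Of the other loci among the 10 with most events, that from 22802490 to 22814568 on chromosome 14 held 8 H3K4me3 events, with 670 scaled reads in KO and 3751 in WT (ratio 0.179, 0.168 to 0.19). Its H3K36me3 had 35.7 scaled reads in KO and 329 in WT (0.109, 0.0662 to 0.168). The locus from 130348586 to 130366083 on chromosome 4 held 7 H3K27ac events, with 771 scaled reads in KO and 3939 in WT (0.196, 0.18 to 0.212), the most H3K27ac reads in WT of the 57. Its H3K4me3 had 114 scaled reads in KO and 2059 in WT (0.0555, 0.0485 to 0.0634). On chromosome 3, from 66023150 to 66030018, the marks were at 0.306 for H3K27ac, 0.138 for H3K4me3 and 0.11 for H3K36me3. On chromosome 4, from 80554603 to 80577622, they were at 0.353, 0.231 and 0.169 in the same order. In both loci H3K27ac had the highest ratio, as it did in the medians on the scale of the lists.

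In some loci H3K4me3 was far lower in KO than H3K27ac was. From 45869641 to 45897978 on chromosome 11, H3K4me3 had 9.5 scaled reads in KO and 1108 in WT, a ratio of 0.00857 (0.00539 to 0.0134), the lowest of the 57. H3K27ac of this locus lay at least 9275 bp away from H3K4me3 and had 266 scaled reads in KO and 903 in WT, a ratio of 0.294 (0.255 to 0.34). H3K36me3 had 3.4 scaled reads in KO and 92 in WT, a ratio of 0.037 (0.0044 to 0.137). From 10203073 to 10208287 on chromosome 3, H3K4me3 had 15.2 scaled reads in KO and 715 in WT, a ratio of 0.0213 (0.0145 to 0.0302). H3K27ac stood 33 bp from H3K4me3 there, with 147 scaled reads in KO and 449 in WT, a ratio of 0.326 (0.267 to 0.397). Both loci were named for their low H3K4me3 ratio, which favours such a gap between the marks. Whether the gap varies with the distance between the marks was not tested.

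On chromosome 19, from 38556067 to 38569960, H3K4me3 had 18.7 scaled reads in KO and 788 in WT, a ratio of 0.0237 (0.0171 to 0.0328), with H3K27ac at 0.152. Another chromosome 19 locus, from 34325244 to 34330221, had 12 events within 4978 bp. H3K36me3 there had 37.4 scaled reads in KO and 608 in WT, a ratio of 0.0615 (0.0382 to 0.0939), and H3K27ac was at 0.362. The locus from 50484412 to 50502361 on chromosome 12 was low in every mark. H3K27ac had 63.4 scaled reads in KO and 536 in WT (ratio 0.118, 0.0887 to 0.155), and H3K4me3 had 23.0 scaled reads in KO and 745 in WT (0.0309, 0.0228 to 0.0412). For H3K36me3 no KO read was counted against 36 in WT, a ratio of 0 (0 to 0.183). Setting KO at a floor of 3 reads for the event would give a ratio of 0.1415, or 7.07-fold lower in KO. The interval reaches above that value, so it is not a bound. The opposite order was seen from 29906689 to 29912001 on chromosome 3. There H3K27ac had 33.7 scaled reads in KO and 292 in WT (0.115, 0.0775 to 0.169), H3K4me3 had 603 scaled reads in KO and 2442 in WT (0.247, 0.231 to 0.264), and H3K36me3 was at 0.285.

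The highest ratios of each mark were as follows. From 8475251 to 8492157 on chromosome 10, H3K27ac had 466 scaled reads in KO and 1225 in WT (ratio 0.38, 0.34 to 0.425). H3K4me3 had 809 scaled reads in KO and 2328 in WT (0.347, 0.326 to 0.37), the highest of the 57, and H3K36me3 had 178 scaled reads in KO and 542 in WT (0.329, 0.264 to 0.406). This locus and the one from 37481209 to 37488129 on chromosome 7, at 0.43, 0.281 and 0.4, were the 2 above 0.25 in all 3 marks. The 3 highest H3K27ac ratios were at other loci. H3K27ac from 97450870 to 97483934 on chromosome 7 had 139 scaled reads in KO and 198 in WT (0.702, 0.557 to 0.881) and lay 29344 bp from H3K4me3. It was at 0.54 (0.437 to 0.663) from 59141041 to 59148379 on chromosome 3 and at 0.539 (0.421 to 0.681) from 24730267 to 24748791 on chromosome 13. After the loci on chromosomes 10 and 7, the next highest H3K4me3 ratio was 0.277 (0.255 to 0.3), from 78462954 to 78468785 on chromosome 9, and the next highest H3K36me3 ratio was 0.306 (0.207 to 0.441), from 57778003 to 57804201 on chromosome 9.

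Across the 57 loci the ratios of the marks went together only loosely. Spearman's rho was 0.517 between H3K4me3 and H3K36me3, 0.445 between H3K27ac and H3K4me3, and 0.238 between H3K27ac and H3K36me3. Without the 11 loci on chromosome 9 they were 0.551, 0.429 and 0.292. The loci share their libraries and scales, and those on 1 chromosome share its background, so these values are descriptions without a p. Within a locus, H3K4me3 events varied most among the loci for which a spread could be computed. At the 46 loci with several H3K4me3 events, the highest event ratio was a median of 3.48 times the lowest. It was 1.55 times for H3K27ac at 37 loci. For H3K36me3 it was 2.44 times at the 37 loci, of 44 with several events, whose events all had KO reads. Leaving out the others lowers the H3K36me3 value, so its rank against H3K4me3 is not sure.

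The arrangement of the marks, which the rule used only through the 10 kb limit, had a common form. H3K4me3 sat in a compact group, with a median of 1540 bp between its outermost events where there were at least 2. H3K27ac overlapped it in part, since its nearest event lay a median of 94 bp from H3K4me3 and 46 of 57 loci had one within 1 kb. Its farthest event lay a median of 2618 bp away, and 76 of all 149 H3K27ac events were within 1 kb. H3K36me3 lay beside the H3K4me3 group, with its nearest event a median of 2215 bp away and its farthest 6000 bp away. For that mark 11 of 57 loci had an event within 1 kb, and 15 of all 194 events were within 1 kb. Of the 44 loci with at least 2 H3K36me3 events, 38 had all of them on 1 side of the read-weighted centre of H3K4me3, a share of 86.4% (72.6 to 94.8). H3K27ac was one-sided at 14 of the 37 loci with at least 2 of its events, 37.8% (22.5 to 55.2). When a single event also counts as lying on 1 side, both marks were one-sided at 32 loci and lay on the same side at 18 of them, 56.3% (37.7 to 73.6), which is near an even split.

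**Figure D3:**
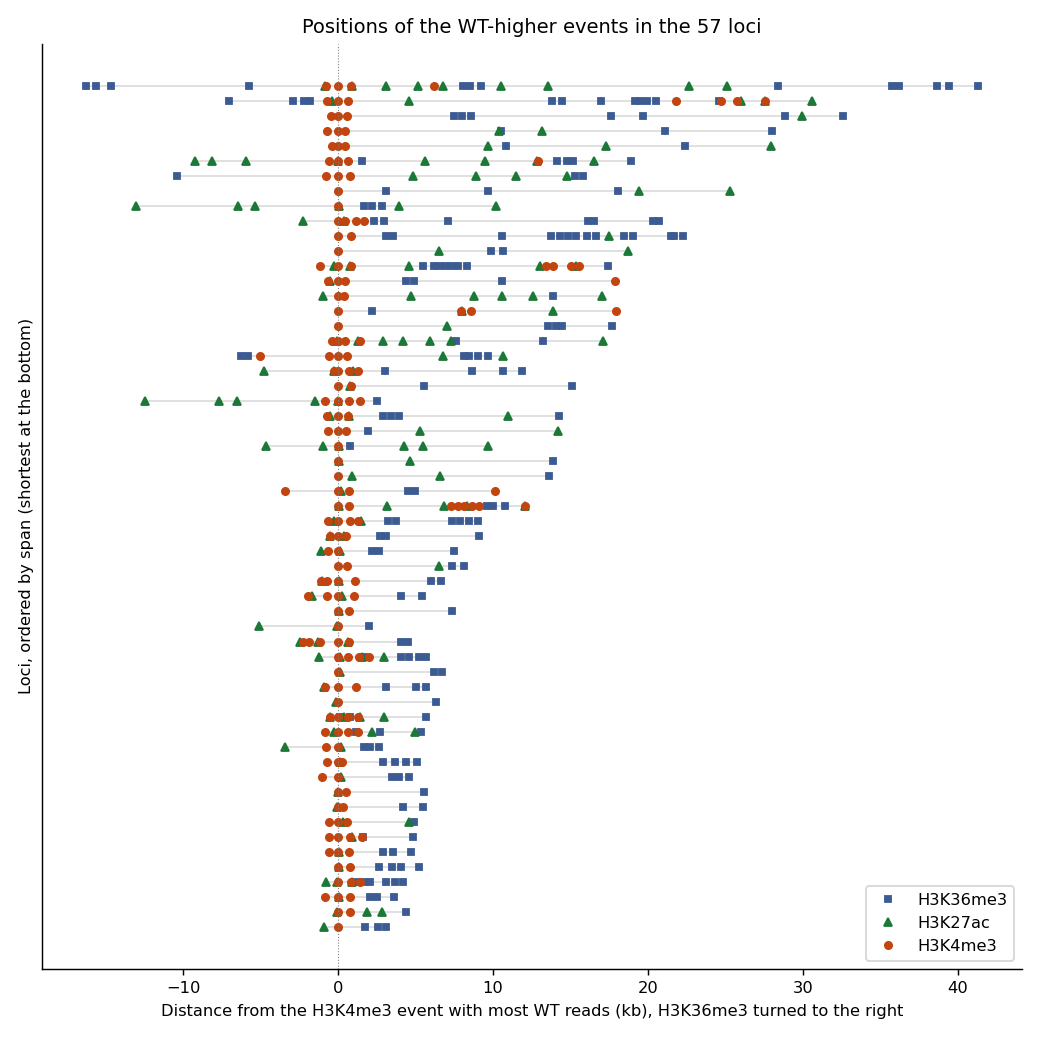
Positions of the 512 WT-higher events, 1 row per locus from the shortest at the bottom to the longest at the top, as distance in kb from the H3K4me3 event with most WT reads; each row is turned so that the median H3K36me3 event lies to the right. Circles (H3K4me3) gather near 0, while triangles (H3K27ac) lie both near 0 and farther out, with 76 of 149 within 1 kb of an H3K4me3 event. Squares (H3K36me3) run off to the right, the side to which rows were turned. In 38 of the 44 loci with at least 2 H3K36me3 events all of them lay on 1 side of the H3K4me3 centre.

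The same form was seen in chains that the rule did not keep. H3K36me3 was one-sided in 36 of 45 loci with all 3 marks KO-higher, 80% (65.4 to 90.4), and in 147 of 170 WT-higher chains without listed H3K27ac, 86.5% (80.4 to 91.2). H3K27ac was one-sided in 14 of 51 KO-higher loci, 27.5% (15.9 to 41.7). One-sidedness was thus not particular to the 57 loci. The 57 WT-higher loci spanned a median of 12079 bp and the 63 KO-higher loci 14169 bp, with a median of 8 events in each. Different programs placed the H3K36me3 events of the KO-higher and WT-higher lists, and their part in this comparison was not tested.

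Ratios near H3K4me3 and far from it had overlapping quartiles within the loci. H3K36me3 events had a median ratio of 0.117 within 2 kb of H3K4me3 (40 events in 24 loci), 0.1 between 2 and 5 kb (65 events in 34 loci) and 0.122 beyond 5 kb (89 events in 32 loci). Their median reads were 7.95 in KO and 64.1 in WT within 2 kb, and 6.8 in KO and 57 in WT beyond 5 kb, with KO reads scaled. H3K27ac events had a median ratio of 0.263 within 1 kb of H3K4me3 (76 events in 46 loci) and 0.239 farther out (73 events in 34 loci). Events of 1 locus are not independent, so these groups were not tested.

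The loci lay on 17 chromosomes, with none on chromosomes 5 and 16. Chromosome 9 held 11 of the 57, or 19.3% (10.0 to 31.9), and 104 of the 512 events. It also held 21.5% of all WT-higher events off chromosome X, and, by mark, 8.67% of those of H3K27ac, 26.9% of H3K4me3 and 19.4% of H3K36me3. The share of loci on chromosome 9 was thus close to that of all WT-higher events and above that of H3K27ac events, the mark with the fewest WT-higher events. Chromosome 18 held 4 loci, 7.02% of the 57, against 2.18% of WT-higher events, and 2 of these 4 were the neighbours described above. Chromosome 10 held 1 locus, 1.75%, against 9.02% of the events. The shares of chromosomes 18 and 10 rest on 4 loci and 1 locus, and whether they differ from the shares of events was not tested. The KO-higher counterparts had 1 locus on chromosome 9 and none on chromosome 18.

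**Figure D4:**
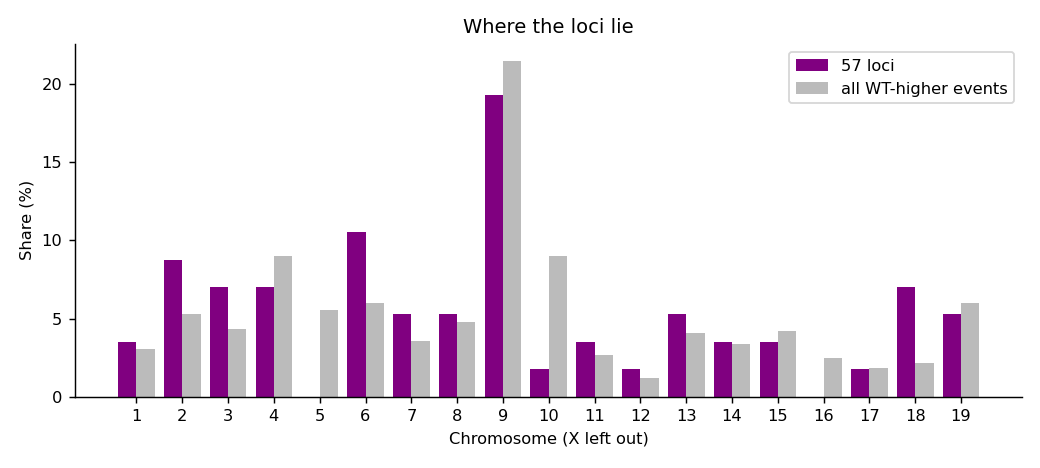
Share of the 57 loci (left bar) and of all WT-higher events (right bar) on each chromosome, in percent, with chromosome X left out. Chromosome 9 is tall in both, at 19.3% and 21.5%, and chromosome 18 has 7.02% of the loci against 2.18% of the events.

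The surroundings of the loci ran in the same direction. Within 100 kb outside their ends, 47 of 57 loci had a further WT-higher event and 6 had a KO-higher one, while 8 had no listed event. These surroundings held 432 WT-higher and 7 KO-higher events, a WT-higher share of 98.4% (96.7 to 99.4), against 48.8% of all listed events off chromosome X. Without chromosome 9 the shares were 97.8% around the loci and 43.1% of all listed events. Events near 2 loci were counted for each, and the intervals treat neighbouring events as independent. Around the KO-higher loci the picture was the mirror image, with 485 KO-higher and 11 WT-higher events. The surroundings of other WT-higher chains were not counted, so whether the share is particular to the 57 loci was not tested.

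The scale of the lists bears on how large the differences are. Ratios were therefore also computed in units of own background for H3K27ac and H3K4me3. The reads of each genotype were divided by the median expected reads, on that chromosome, of the list in which it is higher. That these stand for the background of the genotype is an assumption made here. The median H3K27ac ratio of the loci was then 0.25, against 0.29 on the scale of the lists, and the median H3K4me3 ratio 0.207, against 0.115. All 57 loci remained below 1 in both marks. Of the events, 149 of 149 for H3K27ac and 166 of 169 for H3K4me3 remained below 1, against 100.0% and 89.1% of the whole WT-higher lists. The 3 exceptions were at 42396622 on chromosome 13 (1.15), 22802529 on chromosome 14 (1.23) and 57787588 on chromosome 9 (1.34). H3K4me3 events on chromosome 9 had a median of 0.357 on this scale and those elsewhere 0.205, and H3K27ac events had 0.288 and 0.206. On the scale of the lists, leaving out chromosome 9 moved the median event from 0.125 to 0.117 for H3K4me3 and from 0.252 to 0.266 for H3K27ac. Summed over a locus on that scale, median H3K4me3 was 0.0949 on chromosome 9 and 0.121 elsewhere. How chromosome 9 compares with the rest thus varied with the mark and the measure, and was not tested.

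**Figure D5:**
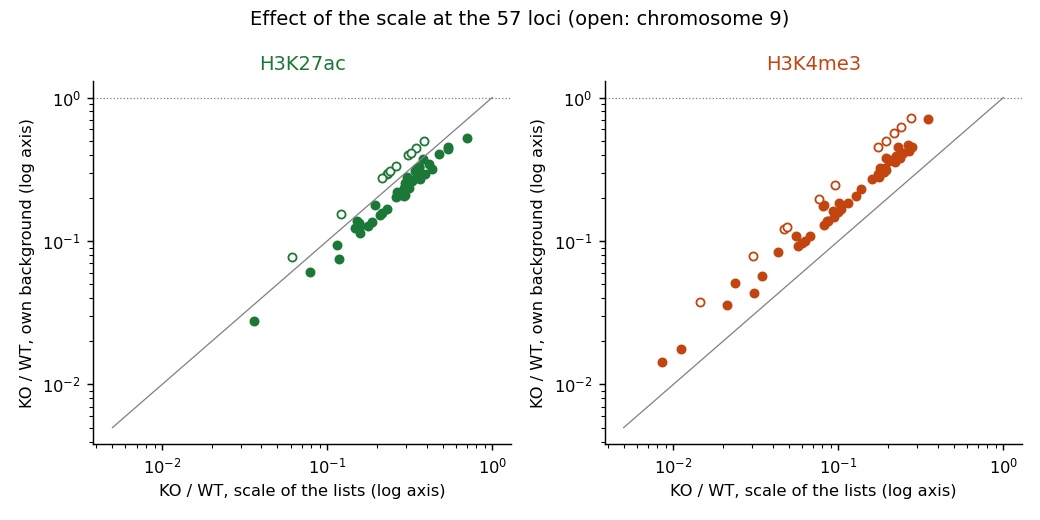
Ratio of KO to WT reads at the 57 loci on the scale of the lists (horizontal, log axis) and in units of own background reads (vertical, log axis), with open points on chromosome 9; the grey line marks equality and the dotted line a ratio of 1. All H3K4me3 points lie above the line, as do the 11 H3K27ac points on chromosome 9, while the 46 other H3K27ac points lie below it, and every point stays below 1.

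Loci at the edge of the rule rested on weak events. The weakest needed mark reached a −log10 q of 2.16 from 37481209 to 37488129 on chromosome 7, 2.24 from 103379019 to 103393964 on chromosome 14, 2.52 from 122743668 to 122751777 on chromosome 6 and 2.77 from 20659314 to 20665996 on chromosome 2, where the lists start at 2. On chromosome 14 the H3K36me3 call was a single one, of 1.7 scaled KO reads against 45 WT reads, a ratio of 0.0378 (0.000935 to 0.221). The locus from 45743628 to 45750080 on chromosome 9 had just 1 event per mark, at 0.231 for H3K27ac, 0.0305 for H3K4me3 and 0.202 for H3K36me3. Just inside the distance limit, the widest gap within a locus was 9931 bp. Just outside, a chain from 29334555 to 29346114 on chromosome 14 missed the rule because its nearest WT-higher H3K4me3 event was 10032 bp away. No chain with all 3 marks WT-higher was left out for holding a KO-higher event, and 3 were left out on chromosome X.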

How the data were processed

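The labels' protocols describe ChIP-seq of KO and WT cells. Alignment was to mm9, and TopHat 1.4 is named without its role, per the submitters' processing notes. The 6 deposited lists hold events placed by GPS (both H3K27ac lists and the KO-higher H3K36me3 list) or GEM (the others), per the file headers and names. Each deposited event has an estimated count of reads in the higher genotype, a scaled signal of the other genotype, their ratio (fold), an expected signal (here background reads, which the sources used here do not define) and a −log10 q of at least 2. The deposited score columns, shape scores that the sources used here do not define, were not used. Total reads per library are unknown.

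The factor by which KO had been multiplied in the WT-higher lists was recovered as the step that made most low values whole multiples within 0.06: 1.09 for H3K27ac, 0.461 for H3K4me3 and 1.70 for H3K36me3. At these factors 77.1%, 52.2% and 91.8% of values were whole, so that of H3K4me3 is the least sure. Unscaled reads, rounded, gave exact conditional binomial (Clopper-Pearson) intervals, and shares have Clopper-Pearson intervals. The reads carry no molecular identifiers and are not independent, so the intervals of ratios cover counting error only. Those of shares treat events or loci as independent. Ratios are KO over WT, and the authors' own fold column, WT over KO in these lists, was not used.

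Named loci were the 10 with most events, the 5 lowest (with at least 20 unscaled KO reads) and 3 highest ratios per mark, and at most 5 at the edge of the rule. Single events, the close pair of loci on chromosome 18 and the excluded chain were picked after their values were seen. The loci and the rules were chosen with earlier results of these data known. The chain rule, the step search and the intervals were tested on simulated data. The work used SciPy 1.17.1 and pandas 2.3.3 with NumPy 2.4.6 under Python 3.11.15, and figures were drawn with matplotlib 3.10.9.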

Additional observations from a re-analysis of the deposited data

How the results depend on the processing

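Medians here are over the events of the loci, with reported values of 0.252 for H3K27ac, 0.125 for H3K4me3 and 0.118 for H3K36me3. Of 46 recomputed values, 39 stayed within 1.5 times the count of loci or within the 95% binomial interval of the reported median or share. The 39 include the values from keeping chains with KO-higher events. Those could not move, since no chain with all 3 marks WT-higher had been left out for such an event. At a −log10 q of at least 5, 31 loci remained of 57, fewer by construction. Chaining at most 20 kb apart gave 80 loci, and medians of 0.154 for H3K4me3 and 0.14 for H3K36me3. With at least 50 reads the median for H3K27ac was 0.284, and with 1 read added that for H3K36me3 was 0.146. In units of own background the medians were 0.217 for H3K27ac and 0.233 for H3K4me3. Apart from the alternatives' own construction, the cause of these shifts was not tested. Keeping chromosome X, added after seeing the data, gave 60 loci. No paired analysis was possible because no list separates replicates: every mark has a single value for KO and a single value for WT. Leaving out replicates was likewise not run. H3K36me3, with a median of 60.5 WT reads per event, is the mark most limited by depth, and no background scale was tried for it.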
